A study of Homo sapiens with 6 samples.

Results

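The mitosis and G2/M genes are 42 genes that encode the cyclins, kinases, motors and chromosome proteins of cell division. They were taken by symbol from a fixed list, and all 42 were found among the 27264 gene rows of the count table. Of the 42, 41 had enough reads for a test across libraries, and FOXM1 did not. Messenger RNA was measured in DLD-1, an established epithelial colorectal cancer cell line from colon, in a study titled for EMT, the epithelial-to-mesenchymal transition, mediated there by the zinc finger repressor ZEB2. The sample descriptions write the line as DLD.1_TR21 in all 6 libraries and do not say what TR21 stands for. Each of 3 clones, named WT2, WT5 and WT37 and labelled ZEB2 WT, was sequenced once without and once with DOX (doxycycline in its usual abbreviation), for 6 libraries in all. The labels call the cells epithelial without DOX and mesenchymal with it, and the dose and time of DOX are unknown here. All 6 libraries carry the ZEB2 label, so DOX itself and ZEB2 cannot be told apart here. Each clone is a single line with 1 library per condition, and the series text takes the clones as the biological replicates.

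Messenger RNAs of mitotic genes are low in resting and G1 cells and accumulate in late S phase and G2, before the cell enters mitosis. Their promoters commonly hold a cell cycle genes homology region (CHR), which binds the MuvB complex, and CCAAT boxes, which bind NF-Y. MuvB represses these genes as part of the DREAM complex in resting cells and activates them together with B-MYB and FOXM1 in cycling cells. In a population of dividing tumour cells their summed messenger RNA therefore follows both the share of cells in late cycle and the amount per cell. In these bulk libraries a smaller share of such cells and less RNA per cell cannot be told apart.

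The promoters are shown first because CHR and CCAAT letters were each found in most of the genes with a promoter entry. RefSeq start sites on GRCh38.p14 were available for 35 of the 42 genes, with 45 promoters reaching from 250 bases before to 50 bases after the start. The 7 genes with no entry were TPX2, UBE2C, TTK, AURKA, BUB3, BIRC5 and FOXM1. The letters TTTGAA or TTCGAA, read on both strands, were taken as the CHR, and CCAAT, read on both strands, as the CCAAT box. A CHR was found in 30 of the 45 promoters, or 66.7%, against 16.4% of all 35116 promoters in the table. Counted by gene, 27 of 35 held one in at least 1 promoter, or 77.1% (95% exact binomial interval 59.9% to 89.6%, which covers counting only), against 19.5% of all genes. CCAAT was present in 73.3% of the members' promoters and in 34.6% of all promoters, and both motifs were present in 55.6% and 6.38%. In 1 of these promoters a CHR and a CCAAT box overlapped. A match describes the letters only and is no proof of a site.

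The following sites were chosen from genes described below, each 30 bases, 5′ to 3′ on the strand of the gene, with the CHR (TTTGAA, or TTCAAA where it lies on the other strand) and any CCAAT or its reverse ATTGG in capitals.
CDC20, chr1:43358904-43358933, plus strand: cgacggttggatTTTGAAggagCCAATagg
TOP2A, chr17:40418030-40418059, minus strand: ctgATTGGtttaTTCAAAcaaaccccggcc
PLK1, chr16:23678848-23678877, plus strand: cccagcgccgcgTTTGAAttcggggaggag
DLGAP5, chr14:55191565-55191594, minus strand: cggtgcggcaagTTTGAAtttcgtggaggc
NUSAP1, chr15:41332882-41332911, plus strand: tggcgccagggaTTTGAAccgcgctgacga
SPC25, chr2:168890416-168890445, minus strand: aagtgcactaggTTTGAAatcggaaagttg
CDC25C, chr5:138331817-138331846, minus strand: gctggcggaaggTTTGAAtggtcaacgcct
CENPA, chr2:26786026-26786055, plus strand: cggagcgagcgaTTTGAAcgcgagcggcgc
ECT2, chr3:172750599-172750628, plus strand: tcgttgggcttaTTTGAAacacacgcacaa
KIF11 and CKS2 are shown over the 120 bases before their start sites, because the spacing of CCAAT box and CHR can be read there.
KIF11, chr10:92593010-92593129, plus strand: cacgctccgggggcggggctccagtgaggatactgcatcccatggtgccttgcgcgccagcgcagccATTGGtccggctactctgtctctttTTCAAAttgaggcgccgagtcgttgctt
CKS2, chr9:89311075-89311194, plus strand: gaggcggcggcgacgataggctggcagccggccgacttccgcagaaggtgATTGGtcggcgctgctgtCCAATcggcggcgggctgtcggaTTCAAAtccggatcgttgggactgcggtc
Both windows were chosen for holding a CHR and CCAAT within these 120 bases, so finding both there is no result. The CHR begins at -28 in KIF11 and -29 in CKS2, counted from the start site, with CCAAT before it. In the sites of TOP2A and ECT2 above it begins at -151 and -115. No CHR, by the exact letters searched, was found for 8 members. Of these, CCNB1, AURKB, CCNA2, KIF20A and PTTG1 held CCAAT, and CENPE, CKAP2 and KIF2C held neither. Other spellings and bases outside the promoter stretch were not searched, so a missing match does not show that the element is absent.

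Libraries held 5440093 to 7164426 reads in genes, and levels are given as CPM, counts scaled to a common total of such reads. The kit reads the 3′ end of each transcript, so gene length does not enter the counts. Reads with several places were 11.8% and 12% of all reads in the WT37 libraries and 14.6% to 16.0% in the other 4, and they were not counted. The summed level of 8 colon epithelial markers was 6676 to 8135 CPM without DOX and 4459 to 5679 CPM with DOX, with none of the 8 at 0. Of 6 mesenchymal markers 2 had enough reads for a test, and the 6 summed to 10.8 to 15.9 CPM without DOX and 9.30 to 19.0 CPM with DOX. Markers of leukocytes, fibroblasts and endothelium reached at most 69, 6 and 3 reads in a library. ZEB2 itself had 9, 5 and 3 reads in WT2, WT5 and WT37 without DOX and 20, 9 and 22 with DOX. The marker change differed among the clones. Over the 11 tested markers of all these types, the log2 CPM ratio with DOX over without had its smallest median size for WT5, at -0.19. The medians for WT2 and WT37 came to -0.68 and -0.87. Of the 11 markers, 8 lay below 0 for WT2, 8 for WT5 and 9 for WT37. The part of the lower epithelial markers, and of this difference among clones, in the results below was not tested.

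The mitotic genes were abundant. Their mean level had a median of 71.7 CPM, against 23.6 CPM over all 11732 genes tested. TOP2A, the topoisomerase that untangles sister chromatids, had the highest level, 710.1 to 935 CPM. AURKB, PTTG1 and TPX2 also lay above 300 CPM, 12 genes lay between 100 and 300 CPM, 25 between 20 and 100 CPM, and FOXM1 alone lay below 20 CPM. Levels varied little among libraries, since the highest of the 6 values was a median of 1.41 times the lowest. Summed over the 42 genes, the level was 5102 and 5619 CPM in WT2 without and with DOX, 5734 and 5752 CPM in WT5, and 5093 and 5370 CPM in WT37. The WT5 libraries were the highest in this sum, and the lowest were WT37 and WT2 without DOX.

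**Figure D1:**
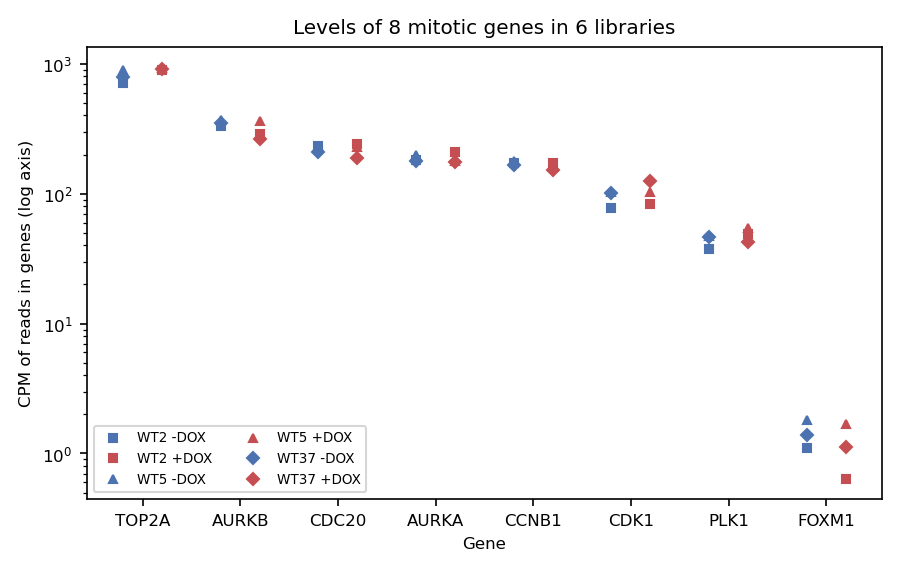
Levels of 8 mitotic genes in each of the 6 libraries, as CPM of reads in genes on a log axis, with 1 point per library, the symbol marking the clone and the colour marking DOX. TOP2A lies between 710.1 and 935 CPM. FOXM1, with few reads, lies between 0.642 and 1.82 CPM, its highest value 2.83 times its lowest. For the other genes the libraries with and without DOX lie close together on this axis.

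FOXM1, the forkhead transcription factor that activates many G2/M genes, had few reads (ENSG00000111206, chromosome 12, 2857681 to 2877155, minus strand). It had 6 and 4 reads in WT2 without and with DOX, 11 and 12 in WT5, and 10 and 8 in WT37. This was 1.44 ± 0.359 CPM without DOX and 1.15 ± 0.528 CPM with DOX (n = 3 each, SD), and the groups overlapped. The last 300 bases of its annotated transcript, where a 3′ kit reads, lie wholly opposite an exon of ITFG2 in GENCODE 29. The strand setting of the counting is unknown here, and reads shared by 2 genes were set aside as ambiguous (6.85% to 7.40% of reads per library). The low value is therefore uncertain as a level of FOXM1. An exon on the opposite strand also covered 22.7% of these bases in KIF20A, 14.0% in PLK1 and 1.33% in CCNA2. In PRC1 an exon of another gene on the same strand covered 49.3%, and no exon of another gene covered these bases in the other members. In the annotation 10 members had neither an overlapping gene nor a listed copy, and the counts of the others are uncertain to that extent. Among copies in the table, CDC20P1 had at most 54 reads in a library, and KIF4B, PTTG2, PTTG3P, CCNB2P1 and UBE2CP3 had at most 1 to 4.

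The first comparison asks whether the mitotic genes differ between cells with and without DOX. None of the 41 tested genes passed edgeR's quasi-likelihood test with Benjamini-Hochberg adjustment over all genes, in either direction. Without a clone term 0 of 41 passed at an adjusted p under 0.05, where 0% of all 11732 genes passed, and 0 were below 0.05 before adjustment, where 6.04% of all genes were. With the clone as a block 0 of 41 passed, where 1.3% of all genes passed, and 2 were below 0.05 before adjustment, DLGAP5 upward and AURKB downward, where 12.9% of all genes were. DESeq2 and limma-voom called 0 of 41 as well, with and without the block. Of all genes DESeq2 called 1.08% with the block and 0.486% without it, and limma-voom 1.58% and 0%. The lowest adjusted p was 0.244 with the block and 0.919 without it.

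The fitted changes were small. With the block they ran from -0.24 for AURKB to 0.32 for DLGAP5 on the log2 scale, with 26 genes above 0 and 15 below. Their median was 0.05 with the block and 0.06 without it, and the median over all genes tested was 0.01 in both. The 95% intervals of single genes, not adjusted for their number, reached a median of 0.23 to either side with the block and extended from -0.46 to 0.58 at most. The 10 members with no overlapping gene and no listed copy had a median of -0.02 in the blocked fit.

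**Figure D2:**
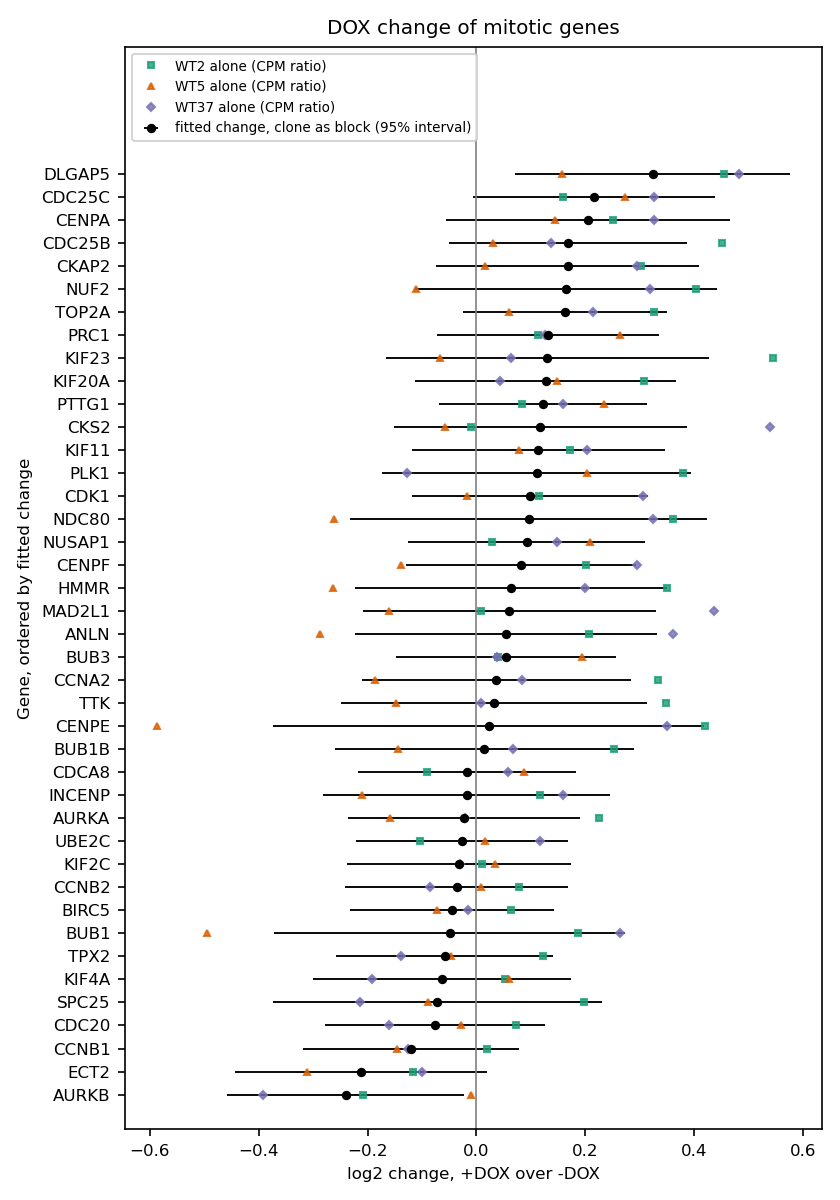
Log2 change with DOX of the 41 tested mitotic genes, ordered by the fitted change (black points, clone as block, lines the 95% interval), with the CPM ratio of each clone as a coloured symbol. The intervals of DLGAP5 (0.07 to 0.58) and AURKB (-0.46 to -0.02) leave out 0, neither gene passed after adjustment, and the symbols of WT5 often lie to the left of those of WT2 and WT37.

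Among the cyclins, CDK1 and its activating phosphatases (7 genes), the fitted blocked changes had a median of 0.10. CCNB1, cyclin B1, had 171 and 173 CPM in WT2 without and with DOX, 179 and 162 in WT5, and 167 and 153 in WT37. Its groups overlapped, and the fitted change was -0.12 ± 0.09 SE (edgeR, adjusted p = 0.619). CDK1, the kinase that cyclin B activates, had 77.2 and 83.6 CPM in WT2 without and with DOX, 103 and 102 in WT5, and 101 and 125 in WT37. Both WT2 libraries were the lowest, and the change with DOX was 0.10 ± 0.10 SE (adjusted p = 0.728). CDC25C, a phosphatase that activates CDK1, had 73.5 and 82.1 CPM in WT2 without and with DOX, 71.5 and 86.4 in WT5, and 60.9 and 76.3 in WT37. All 3 libraries with DOX lay above all 3 without, at 68.6 ± 6.81 CPM without DOX and 81.6 ± 5.09 CPM with DOX (n = 3 each, SD). Its fitted change was 0.22 ± 0.10 SE, with a 95% interval of -0.01 to 0.44 and an edgeR adjusted p of 0.401. CKS2, a small protein that binds CDK1, had 70.8 and 70.3 CPM in WT2 without and with DOX, 77.1 and 74.1 in WT5, and 47.9 and 69.5 in WT37, so 1 library, WT37 without DOX, stood below the other 5. CCNB2, CCNA2 and CDC25B had blocked changes of -0.04, 0.04 and 0.17.

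CDC25C shared its separation of the groups with few other members. In CPM, all 3 libraries with DOX lay above all 3 without in 4 of 41 genes, CDC25C, CENPA, KIF20A and PTTG1, where 6.55% of all genes did so. The reverse was seen in 0 of 41, against 4.56% of all genes. After TMM scaling, which allows for the composition of each library, the count was 0 of 41 in both directions, against 5.32% and 6.08%.

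Of the 6 mitotic kinases, AURKB had the largest downward fit. AURKB, the kinase of the chromosomal passenger complex, had 332 and 287 CPM in WT2 without and with DOX, 367 and 364 in WT5, and 348 and 265 in WT37. The level with DOX was below that without in all 3 clones, with the size in WT5 near 0, and the groups overlapped. The means were 349 ± 17.3 CPM without DOX and 306 ± 51.8 CPM with DOX (n = 3 each, SD), and the blocked change was -0.24 ± 0.10 SE (edgeR, adjusted p = 0.333). Without clone WT5, the same fit on the 4 libraries of WT2 and WT37 gave AURKB -0.36 with an adjusted p of 0.0391, the 1 DOX call among the members in any fit that was run. That fit called 6.25% of all genes, so 1 of 41 is no more than its share over all genes. AURKA, which acts at the spindle poles, had 181 and 211 CPM in WT2 without and with DOX, 198 and 177 in WT5, and 178 and 176 in WT37. PLK1, polo-like kinase 1, had 37.5 and 48.8 CPM in WT2 without and with DOX, 47.4 and 54.6 in WT5, and 46.3 and 42.4 in WT37. The groups of both overlapped, and their changes were -0.02 ± 0.10 SE and 0.11 ± 0.13 SE with the block. BUB1, BUB1B and TTK, kinases of the spindle checkpoint, had -0.05, 0.01 and 0.03.

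The checkpoint proteins BUB3 and MAD2L1, which hold back anaphase until chromosomes are attached, had changes of 0.05 and 0.06. CDC20, which activates the anaphase-promoting complex, had 231 and 243 CPM in WT2 without and with DOX, 232 and 228 in WT5, and 209 and 187 in WT37. The lowest value was that of WT37 with DOX, and the groups overlapped. Its change was -0.08 ± 0.09 SE (edgeR, adjusted p = 0.783). UBE2C, the ubiquitin-conjugating enzyme of that complex, and PTTG1, the securin it destroys, had -0.03 and 0.12.

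At the centromere and kinetochore (6 genes) the median change was 0.09. CENPA, the histone variant that marks centromeres, had 34.4 and 40.9 CPM in WT2 without and with DOX, 32.9 and 36.3 in WT5, and 30.0 and 37.6 in WT37. These were 32.4 ± 2.22 CPM without DOX and 38.3 ± 2.35 CPM with DOX (n = 3 each, SD), and the fitted change was 0.20 ± 0.12 SE (edgeR, adjusted p = 0.505). SPC25, a subunit of the NDC80 complex that grips microtubules, had 26.3 and 30.2 CPM in WT2 without and with DOX, 31.9 and 30.0 in WT5, and 24.4 and 21.1 in WT37, with the lowest value in WT37 with DOX. CENPE, a kinetochore motor, had the widest spread among clones, at 0.42 in WT2, -0.59 in WT5 and 0.35 in WT37 as log2 CPM ratios with DOX over without.

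Among the 6 spindle assembly and chromosome proteins, DLGAP5 had the largest upward fit of all members. DLGAP5, a microtubule-binding protein that stabilises kinetochore fibres, had 38.1 and 52.1 CPM in WT2 without and with DOX, 54.2 and 60.4 in WT5, and 35.2 and 49.2 in WT37. Each clone had more of it with DOX, but WT5 without DOX lay above WT2 and WT37 with DOX, so the groups overlapped. The means were 42.5 ± 10.2 CPM without DOX and 53.9 ± 5.81 CPM with DOX (n = 3 each, SD), and the change was 0.32 ± 0.12 SE with an edgeR adjusted p of 0.244 with the block and 0.919 without. TOP2A had 710.1 and 890.3 CPM in WT2 without and with DOX, 898 and 935 in WT5, and 786 and 912 in WT37. It too was higher with DOX in each clone, by least in WT5, and the change was 0.16 ± 0.09 SE (adjusted p = 0.452). HMMR, a spindle protein that is also a hyaluronan receptor, had 46.7 and 59.5 CPM in WT2 without and with DOX, 42.8 and 35.6 in WT5, and 39.5 and 45.4 in WT37. WT2 with DOX was the highest and WT5 with DOX the lowest library, and the change was 0.06 ± 0.13 SE. CKAP2, a microtubule-associated protein, had 56.4 and 69.6 CPM in WT2 without and with DOX, 56.7 and 57.3 in WT5, and 45.8 and 56.2 in WT37, and its change was 0.17 ± 0.11 SE (adjusted p = 0.565).

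Besides AURKB, the passenger complex genes BIRC5 (survivin), INCENP and CDCA8 (borealin) had changes of -0.05, -0.02 and -0.02. The 5 kinesins ran from -0.06 for KIF4A to 0.13 for KIF23. Of the cytokinesis genes, ECT2, the exchange factor that switches on RhoA at the cleavage furrow, had 73.5 and 67.8 CPM in WT2 without and with DOX, 64.4 and 51.9 in WT5, and 61.6 and 57.4 in WT37. It was lower with DOX in all 3 clones, the groups overlapped, and the change was -0.21 ± 0.11 SE (edgeR, adjusted p = 0.428). PRC1, which bundles midzone microtubules, and ANLN, the scaffold anillin, had 0.13 and 0.05.

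Within clones the members' ratios with DOX lay highest in WT2 and lowest in WT5, and with 1 library per clone and condition this difference could not be tested. The median marker change given above was also smallest in size for WT5, and any link with the members' ratios was not tested. The log2 CPM ratio with DOX over without had a median of 0.17 in WT2, -0.03 in WT5 and 0.13 in WT37, where all genes had medians of 0.04, 0.00 and 0.08. In WT2 36 of 41 genes lay above 0, in WT5 18 and in WT37 29. Of all 11732 genes 6503, 5866 and 6966 did so in these clones. Poisson intervals at 95%, which cover counting error only, lay wholly above 0 for 16 members in WT2, where 15% of all genes did so, and wholly below for 1, against 11%. In WT5 they lay above 0 for 6, against 14.7% of all genes, and below for 9, against 14.8%. In WT37 they lay above 0 for 17, against 24.4%, and below for 5, against 14%. Such intervals are narrower for genes with more reads. The members were more abundant than all genes (median 71.7 against 23.6 CPM), so these shares are not matched for level. With TMM scaling the median ratios of the members were 0.14, -0.03 and 0.05, and 23 genes lay above 0 in WT37.

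Some genes had ratios of opposite sign in different clones. CENPE had 22.1 and 29.5 CPM in WT2 without and with DOX, 35.7 and 23.8 in WT5, and 33.1 and 42.1 in WT37, so DOX went with a higher level in WT2 and WT37 and a lower one in WT5. BUB1 had ratios of 0.19 in WT2, -0.50 in WT5 and 0.26 in WT37. For HMMR they were 0.35 in WT2, -0.26 in WT5 and 0.20 in WT37. These 3 genes, a kinetochore motor, a checkpoint kinase and a spindle protein, shared the low ratio in WT5. Those of CDC20 were 0.07 in WT2, -0.03 in WT5 and -0.16 in WT37. TPX2 gave 0.12 in WT2, -0.05 in WT5 and -0.14 in WT37. Like CDC20, it had its highest ratio in WT2 and its lowest in WT37. These 5 genes were picked after their values were seen. In all 3 clones together 12 of 41 members were higher with DOX, where 21.3% of all genes were, and 2, AURKB and ECT2, were lower, where 13.8% were. With TMM scaling these counts were 9 and 3, where 17.8% and 17.2% of all genes were.

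**Figure D3:**
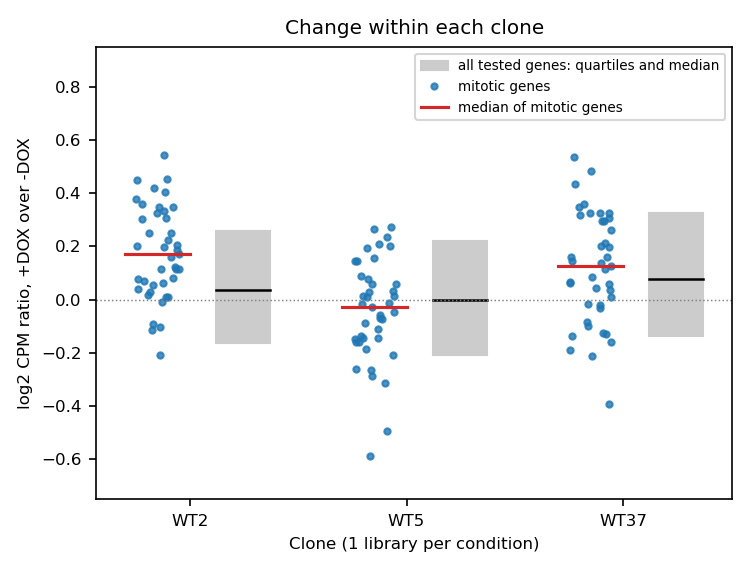
Log2 CPM ratio with DOX over without in each clone for the 41 tested mitotic genes (points) with their median (red line), beside the quartiles and median of all tested genes (grey box, black line). The medians of the mitotic genes are 0.17 in WT2, -0.03 in WT5 and 0.13 in WT37. Each clone has 1 library per condition.

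The second comparison asks whether the clones themselves differ, with DOX as a covariate, so that each clone is represented by its 2 libraries. Most mitotic genes had a lower fitted level in WT37 than in WT5, and 3 of them passed the test, TPX2, KIF11 and DLGAP5, all lower in WT37. Of 41 genes 35 had a fitted difference below 0 between WT37 and WT5, with a median of -0.20, where the median over all genes was 0.00. The 3 calls stood against 5.92% of all genes called in either direction and 2.74% called lower, and 0 members were called higher, where 3.17% of all genes were. Before adjustment 16 members were below 0.05, all lower, where 11.7% of all genes were below 0.05 and lower. The 3 calls were lost when WT2 was left out of the fit, which leaves 4 libraries (0 of 42 called, against 3.38% of all genes), and 0 of 41 passed without the DOX covariate, against 1.54% of all genes. DESeq2 called TPX2 alone, where it called 2.73% of all genes, and limma-voom called TPX2 and KIF11, where it called 5.74%.

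TPX2, which activates Aurora A and nucleates spindle microtubules (ENSG00000088325, chromosome 20, 31739271 to 31801805, plus strand), had 300.2 and 327 CPM in WT2 without and with DOX, 380.3 and 368 in WT5, and 296 and 269 in WT37. Both WT5 libraries were the highest and both WT37 libraries the lowest. The difference was -0.48 ± 0.11 SE on the log2 scale (95% interval -0.72 to -0.24, edgeR adjusted p = 0.0292). KIF11, the bipolar kinesin that pushes spindle poles apart (ENSG00000138160, chromosome 10, 92593286 to 92655395, plus strand), had 54.4 and 61.3 CPM in WT2 without and with DOX, 63.1 and 66.6 in WT5, and 44.8 and 51.5 in WT37. It showed the same order, WT5 above WT2 above WT37, without overlap between WT37 and the others. The difference was -0.51 ± 0.13 SE (95% interval -0.79 to -0.23, edgeR adjusted p = 0.0403). DLGAP5 (ENSG00000126787, chromosome 14, 55148112 to 55191678, minus strand), with its values as above, had -0.54 ± 0.14 SE (95% interval -0.84 to -0.23, edgeR adjusted p = 0.0452), and WT37 lay below WT5 in each condition. Over 8 alternative settings TPX2 kept an adjusted p under 0.05 in 6, KIF11 in 5 and DLGAP5 in 3, and all 3 differences stayed below 0.

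NUSAP1, which binds spindle microtubules near chromosomes, had 92.6 and 94.5 CPM in WT2 without and with DOX, 91.7 and 106 in WT5, and 73.6 and 81.5 in WT37. Both WT37 libraries were the lowest, and the difference from WT5 was -0.43 ± 0.12 SE (edgeR adjusted p = 0.0597), just outside the threshold. SPC25, CKS2 and CDC20, whose values are given above, had differences of -0.52 ± 0.17 SE, -0.46 ± 0.15 SE and -0.30 ± 0.11 SE, with adjusted p of 0.0893, 0.0937 and 0.143. In all 3 genes both WT37 libraries were the lowest. In CKS2 only WT37 without DOX stood well below the rest, and WT37 with DOX lay just under both WT2 libraries. The 3 passenger complex genes other than AURKB lay lower in WT37 than in WT5 and were below 0.05 before adjustment. BIRC5 was at -0.24, INCENP at -0.43 and CDCA8 at -0.35, and none passed after adjustment. The 2 checkpoint genes, BUB3 and MAD2L1, lay at -0.17 and -0.07, and the genes above 0 were CENPE, CDC25B, CDK1, TTK, HMMR and PTTG1, at most 0.26.

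Against WT2 the picture was the same in direction but no gene passed. Between WT37 and WT2, 0 of 41 passed, where 5.83% of all genes did (2.68% lower and 3.15% higher). Of the members 34 lay below 0, and the median was -0.20 in this TMM-scaled fit. The size depended on the scaling. In CPM the members' median was -0.03 without DOX, with 25 of 41 below 0, and -0.12 with DOX, with 31 below. After TMM scaling these medians were -0.13 and -0.26. Before adjustment 14 members were below 0.05, 13 of them lower, where 10.8% of all genes were lower and 11.8% higher. The lowest adjusted p was that of CDC20, with a difference of -0.38 ± 0.11 SE (edgeR, adjusted p = 0.0704), and HMMR had the largest size, -0.44 ± 0.16 SE (adjusted p = 0.127). Without clone WT5 this contrast called 7 of 41 members, or 17.1%, where 15% of all genes were called, so the shares were near in total. By direction they differed, since 6 of the 7 members were lower and 1 higher, where 7.79% of all genes were lower and 7.25% higher. Between WT5 and WT2, 0 of 41 passed, where 1.02% of all genes did (0.341% lower and 0.682% higher), and the median was 0.08. DESeq2 called 0 members in both of these contrasts, where it called 2.79% of all genes for WT37 against WT2 and 0.759% for WT5 against WT2. The contrasts share their libraries, WT37 in the first pair and WT2 in the second, so they are not independent of each other.

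CDK1 stood out among the core genes between WT37 and WT2. It was 0.37 ± 0.12 SE higher in WT37 than in WT2 (95% interval 0.10 to 0.63, edgeR adjusted p = 0.102), with no overlap between the libraries of these clones, while its partner CCNB1 was at -0.22 and CKS2 at -0.40. In this contrast it was the 1 member higher in WT37 with an unadjusted p under 0.05, and it did not pass after adjustment. Between WT37 and WT5 CDK1 differed by 0.05 (edgeR adjusted p = 0.846), and both WT2 libraries were the lowest.

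The test of any difference among the 3 clones called 0 of 41 members, where 6.84% of all genes were called, and 16 were below 0.05 before adjustment, where 24.8% of all genes were. The lowest adjusted p was that of TPX2, 0.0517, just outside the threshold. DESeq2 and limma-voom called 0 of 41, where they called 3.72% and 5.37% of all genes. Without clone WT5 only WT37 and WT2 remain, and the test is the contrast of these clones given above. In CPM both WT37 libraries were lower than the other 4 in 11 of 41 members, where 8.32% of all genes were, and with TMM scaling in 18, where 14.1% of all genes were. Both WT5 libraries were above the other 4 in 11 members in CPM, where 8.22% of all genes were, and in 12 with TMM scaling, against 8.33%. The scaling matters here because the median of all genes was 0.10 higher in WT37 than in WT2 without DOX and 0.15 higher with DOX in CPM, and 0.00 and 0.01 after TMM. Relative to WT5, the members' median in WT37 was -0.16 without DOX and -0.08 with DOX in CPM, and -0.19 in both conditions after TMM. The share of reads with several places, lowest in WT37, moved with this difference, and its part was not tested.

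**Figure D4:**
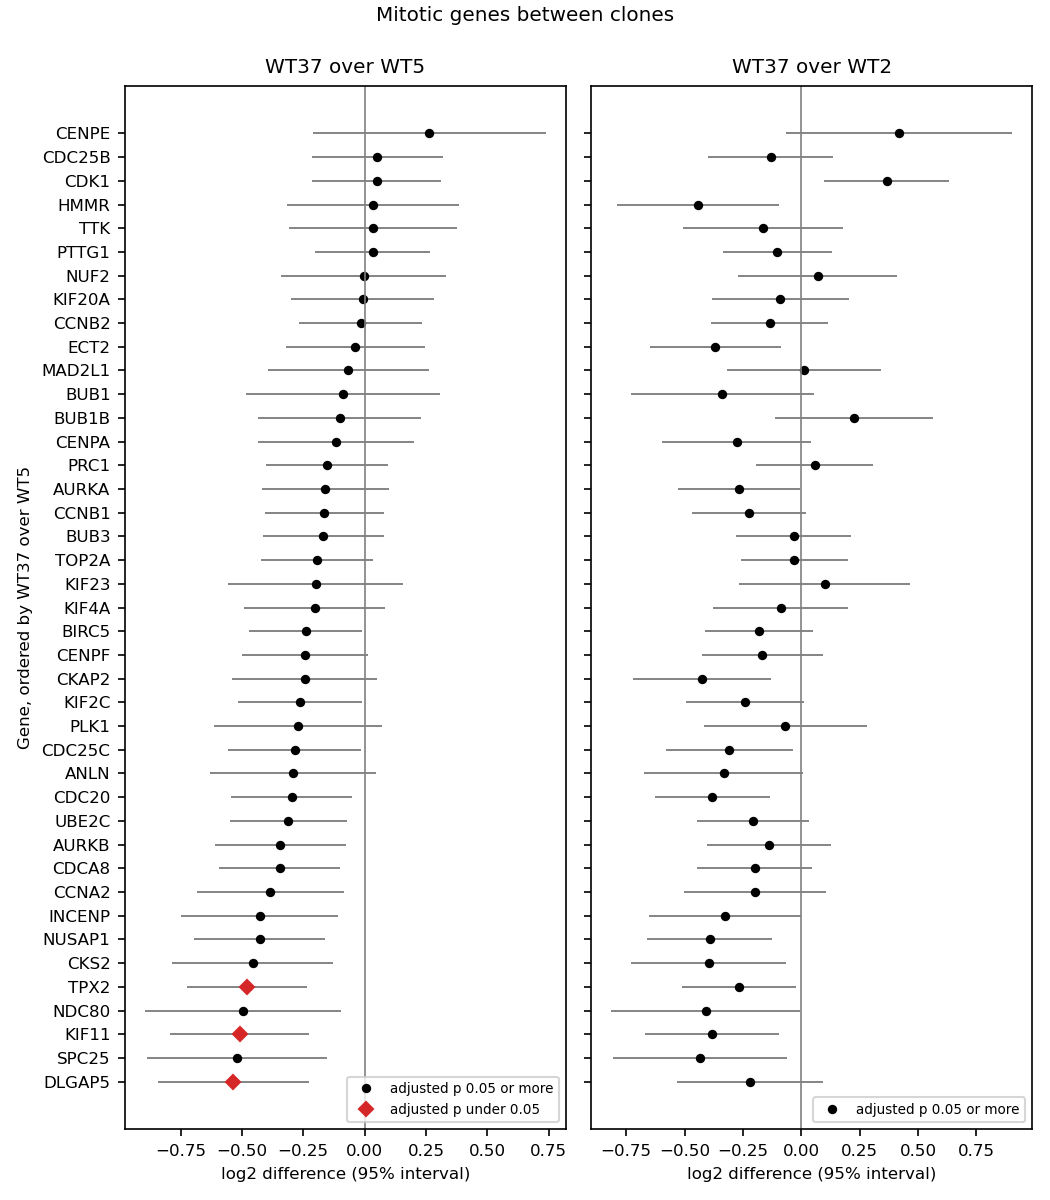
Fitted log2 difference between clones for the 41 tested mitotic genes with 95% intervals, WT37 over WT5 on the left and WT37 over WT2 on the right, in the same order of genes. On the left 35 of 41 points lie below 0 and TPX2, KIF11 and DLGAP5 (red diamonds) have an adjusted p under 0.05, and on the right 34 lie below 0 and none does.

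**Figure D5:**
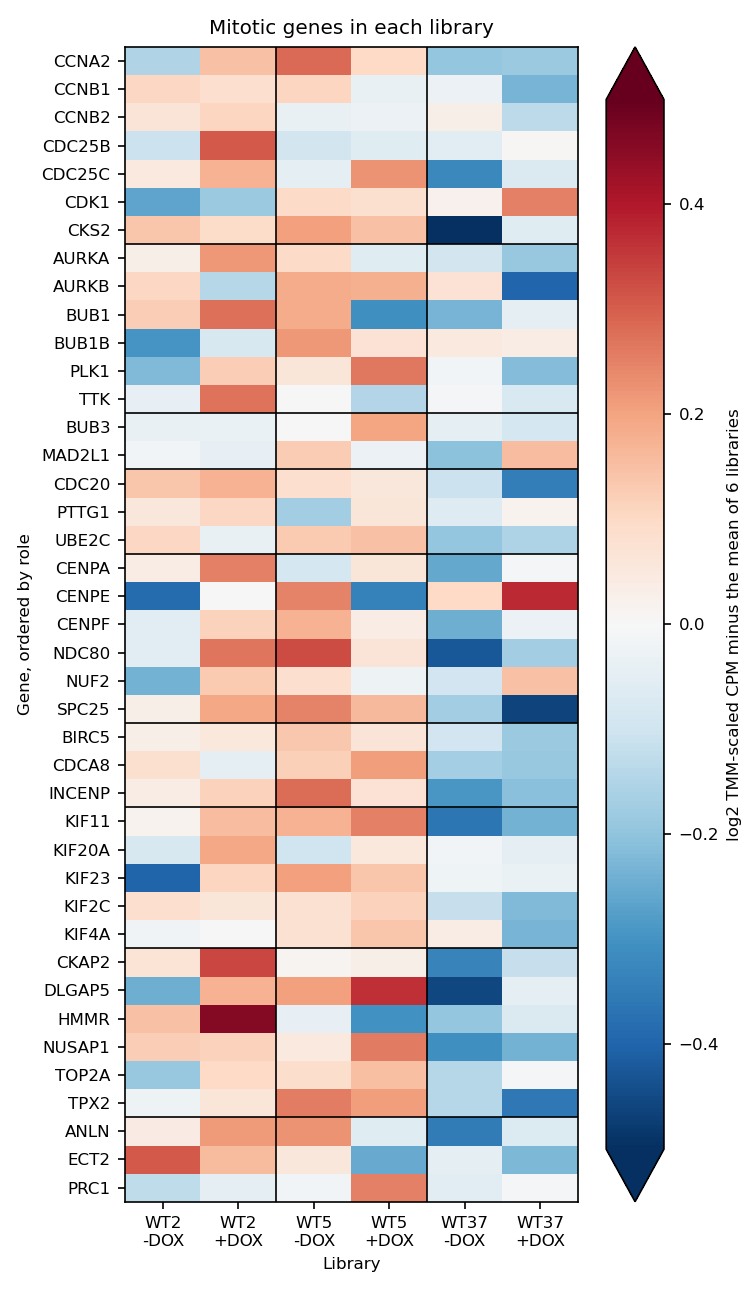
Level of each tested mitotic gene in each library as log2 TMM-scaled CPM minus the mean of the 6 libraries, with genes grouped by role, red above and blue below that mean. The 2 WT37 columns are mostly blue, and both are the lowest for 18 of the 41 genes.

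Other genes of the same pathway were examined for comparison. Of 117 further mitotic genes, 108 had enough reads for a test. With DOX, 1 of 108 passed in the blocked fit, where 1.3% of all genes passed, and 0 without the block, where 0% passed. The count is no more than the share over all genes, and the median of the 108 was 0.01. The gene that passed was HJURP, the chaperone that loads CENPA at centromeres. HJURP had 84.9 and 121 CPM in WT2 without and with DOX, 88.7 and 116 in WT5, and 70.5 and 104 in WT37. All 3 libraries with DOX lay above all 3 without, where 6.55% of all genes did so in CPM. Its change was 0.45 ± 0.10 SE (edgeR, adjusted p = 0.0469 with the block and 0.644 without), and the blocked call was lost in DESeq2 and without clone WT2 or WT37. Between clones 5 of 108 passed, where 6.84% of all genes passed, so the count is no more than the share over all genes. The medians of the 108 were -0.11 for WT37 over WT5 and -0.11 for WT37 over WT2.

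Of these 5, MYBL2, which encodes the B-MYB protein that partners MuvB at G2/M promoters, had the smallest p. It had 229.8 and 213 CPM in WT2 without and with DOX, 279 and 324 in WT5, and 165 and 169 in WT37, with WT5 the highest clone and WT37 the lowest. The difference of WT37 from WT5 was -0.93 ± 0.12 SE (edgeR, adjusted p = 0.00174). CEP55, an abscission protein, was at -0.65, and SPC24, the partner of SPC25, was at -0.36 against WT5 and -0.76 against WT2. SKA3, a kinetochore protein, and MKI67, the proliferation marker Ki-67, complete the 5, at -0.57 and -0.47, and were named after their values were seen. MKI67 had 342 and 382 CPM in WT2 without and with DOX, 425 and 397 in WT5, and 312 and 316 in WT37. Against WT5, 7 of the 108 passed as lower in WT37 and 0 as higher, where 2.74% and 3.17% of all genes did. Against WT2 4 passed as lower and 0 as higher, where 2.68% and 3.15% of all genes did.

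The DNA replication and G1/S genes gave 0 calls with DOX, where 1.3% of all genes passed with the block and 0% without it. In the blocked fit 24 of 32 lay below 0, where 5732 of all 11732 genes did. Their median was -0.12, where that of all genes was 0.01. Between clones 1 of 32 passed, where 6.84% of all genes did, FEN1, the flap endonuclease of replication. Against WT5 2 passed as lower in WT37, where 2.74% of all genes did. These were FEN1 at -0.54 and RRM2, a ribonucleotide reductase subunit, at -0.41. The median of the 32 genes against WT5 was -0.18. The 7 inhibitors and DREAM repressor subunits gave 0 calls in the DOX and clone tests. Over these 3 lists together, 147 genes were tested and the clone test called 6, against 18 without clone WT5, 0 without WT37, 15 with no filter on low counts, 2 without the DOX covariate and 3 in DESeq2. Over all genes the share called moved as well, from 6.84% to 15% without WT5, 1.11% without WT37, 7.55% with no filter, 2.11% without the covariate and 3.72% in DESeq2. CDKN1A, the inhibitor p21, had 17.3 and 17.2 CPM in WT2 without and with DOX, 14.9 and 19.2 in WT5, and 19.1 and 20.5 in WT37, and the groups overlapped.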

How the data were processed

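Messenger RNA of 6 libraries from 3 clones was sequenced with Lexogen's QuantSeq 3′ FWD kit, per the labels' protocols. The authors deposited 1 table of raw read counts per Ensembl gene. The submitters' processing notes name GRCh38 and DESeq2, and the aligner, counter, strand setting and annotation were not given in sources used here. The deposited counts held 27264 gene rows and 4 rows that name no gene (4.29% to 5.25% unmapped, 11.8% to 16.0% with several places, 8.72% to 11.7% outside features, 6.85% to 7.40% ambiguous), which stayed out of library sizes. Totals of 5440093 to 7164426 reads per library gave 95% Poisson intervals for a within-clone log2 ratio that reached a median of 0.18 to 0.20 and at most 0.34 to either side among the members tested.

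CPM were computed from the counts over the reads in genes. Tests used edgeR 4.0.16 in R 4.3.3 (quasi-likelihood, robust option, TMM scaling, filterByExpr by DOX group, 11732 genes kept), Benjamini-Hochberg adjustment over all genes tested and a threshold of 0.05, and they were tested on simulated data. Standard errors are the size of the change over the square root of F, which is approximate. DESeq2 1.42.0 and limma 3.58.1 were alternatives. Deviations from the group means correlated across genes within a clone (WT2 r = 0.49, WT5 r = 0.28, WT37 r = 0.53), with the clone taken from the titles, so the clones pair the samples and the blocked fit is given. The block lowered the biological coefficient of variation from 17.9% to 10.9%. No 2 libraries of a group agreed within sampling noise (chi-square 6.11 to 18.3 times its degrees of freedom). The clone fit takes DOX to act alike in all clones. Positions and 3′ ends are those of GENCODE 29 on GRCh38, promoters those of RefSeq.

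Values in every library are given for 8 core genes (CCNB1, CDK1, PLK1, AURKA, AURKB, CDC20, TOP2A and FOXM1), the 10 members with the smallest p in the clone test, and the 3 largest rises and 3 largest falls of the blocked fit, and of other lists for at most 3 called genes. CENPE, MKI67 and CDKN1A were added outside this rule, after their values were seen. The members and lists were chosen with earlier results of these data known.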

Additional observations from a re-analysis of the deposited data

How the results depend on the processing

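With DOX, 0 members passed under the 24 other settings except the replicate block without clone WT5, where 1 passed (AURKB) and 6.25% of all genes did. The further mitotic, G1/S and repressor genes had 0 calls with DOX, and 1 with the replicate block, also with DESeq2 size factors, limma-voom, no filter or no robust option, and 3 with the block without WT5. Over all genes the block called 1.3%, and 6.25% without WT5. With the block it was 1.32% with DESeq2 size factors, 1.58% with limma-voom, 2.19% with no filter and 1.56% with no robust option. For any clone difference among the members, 0 became 7 without WT5, 1 with DESeq2 size factors and 6 with no filter, while the share of all genes went from 6.84% to 15%, 7.12% and 7.55%. For WT37 against WT2, 0 became 7 without WT5 and 1 with no filter, and over all genes 5.83% became 15% and 5.26%. For WT37 against WT5, 3 became 0 without WT2, 0 without the DOX covariate, 5 with no filter and 1 with DESeq2, and over all genes 5.92% became 3.38%, 1.54%, 5.48% and 2.73%. The cause was not tested. The block changed no other call of a member. The median DOX change of the members ran from -0.03 to 0.12, and the share of genes with a CHR was 71.4% with TTTGAA alone.

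The sign of the DOX change turned in 9 of 18 named members, always with a clone or library left out and never at a size over 0.16. Over these settings without the block the change was -0.14 to 0.073 for AURKA, -0.17 to 0.077 for CDC20, -0.17 to 0.10 for TPX2, -0.17 to 0.14 for SPC25, -0.11 to 0.22 for CKS2, -0.16 to 0.24 for HMMR, -0.027 to 0.23 for NUSAP1, -0.027 to 0.25 for KIF11 and -0.0047 to 0.21 for CDK1. With the replicate block it was 0.045 for AURKA without WT5 and -0.065 for HMMR without WT2. Without WT37 it was 0.016 for AURKA, 0.0053 for CDC20, 0.022 for TPX2, 0.035 for SPC25 and -0.050 for CKS2. With 3 clones and 1 library each, the 95% interval of a gene limits the change that could be seen, and reads with several places were not counted.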
